A study of Drosophila melanogaster with 27 samples.

Results

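RNA levels outside the deleted segments were compared between adult Drosophila melanogaster females of 3 deficiency crosses and wild type females. The comparison used 12 of the 27 arrays of the series, namely 9 from the heterozygous deficiency groups Df(2L)ED4651/+, Df(2L)J-H/+ and Df(3L)4470/+ and 3 from wild type. These groups were chosen because each deficiency had been crossed to the same laboratory strain, Oregon R, so that genes altered alike in all 3 crosses and lying outside the segment that each of them lacks could be listed. A deficiency is a chromosome from which a run of neighbouring genes has been deleted, and a heterozygous fly keeps 1 copy of those genes.

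RNA was measured on Affymetrix Drosophila arrays, in a study of flies with abnormal numbers of chromosome segments and of the small chromosome 4. Wild type was the laboratory stock y1 w67c23, which carries mutations of the body colour gene yellow and the eye colour gene white. The deficiency females were daughters of Oregon R and of the balanced stocks Df(3L)4470/TM6C, Df(2L)J-H/SM5 and Df(2L)ED4651/SM6a, a balancer being a rearranged chromosome that keeps the deficiency in the stock. Each array measured total RNA of 10 whole females no more than a day old, and each group had 3 biological replicates. The text on the series design names the third deficiency as lying on 2L, and the sample labels place it on 3L, where a run of lowered genes was found.

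Every deficiency group thus differed from wild type in its deficiency, in its Oregon R parent, in the chromosomes of the balanced stock and in being the offspring of a cross between stocks. These differences cannot be told apart here, because no Oregon R females and no y1 w67c23 crosses without a deficiency are among the 12 arrays. The p-values measure the spread between arrays of a genotype, and 1 stock stood for wild type.

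Newly emerged females are still completing their ovaries. In a developing egg chamber, the nurse cells and the oocyte of the germline load RNAs that the embryo will use, such as those that set up its axes, while the surrounding follicle cells secrete the vitelline membrane and then the chorion of the eggshell. Outside the ovary the young fly hardens and tans its cuticle and fills its flight muscles with mitochondria, and its gut and fat body change as it begins to feed. In RNA from whole flies, fewer cells of a type and less RNA per cell cannot be told apart.

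Levels are given on the log2 scale, and a ratio is the mean of a deficiency group, or of the 3 deficiency groups, minus the wild type mean, so that 1 unit is a doubling. Of 11899 genes measured, 7337 passed a limit on low values and 126 of these overlapped the segments left out, which left 7211 genes tested. A gene passed the limit where the midpoint between its wild type mean and its pooled deficiency mean was above 6, so a gene low in one of them could pass through the other. Each segment was found as the run of at least 20 tested genes with the largest summed fall for its length. The fall was that of a deficiency group against the mean of the other deficiency groups. The segments held 46 tested genes from Irbp18 to CG5946 in Df(3L)4470/+, 55 from Ifrd1 to Pgant4 in Df(2L)ED4651/+ and 24 from uif to CG5973 in Df(2L)J-H/+. The paper, with a limit on the wild type level alone, counts more expressed genes within each deficiency, and the gap is widest for Df(2L)J-H. Genes of the deletions may therefore remain among those tested. Arrays of a deficiency group correlated with each other at 0.985 to 0.997 over all probe sets, and arrays of different deficiency groups correlated at 0.985 to 0.995. Deficiency and wild type arrays correlated at 0.947 to 0.981. The sex on the labels was matched by the markers, because all 7 male markers measured, among them the seminal protein gene Acp26Aa, were too low to be tested and reached at most 6.27 on any of the 12 arrays. Replicate 1 of Df(3L)4470/+ stood apart in eggshell genes, with a mean of 9.45 over the list described below against 6.26 to 7.80 on the other 8 deficiency arrays.

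Of the 7211 genes, 2286 (31.7%) were higher in the pooled deficiency groups than in wild type and 2397 (33.2%) were lower, together 64.9%, at an adjusted p under 0.05 in limma. Taken singly, the crosses gave 1968 higher and 2085 lower genes in Df(2L)J-H/+ (27.3% and 28.9%), 2092 and 2131 in Df(2L)ED4651/+ (29% and 29.6%), and 1896 and 1945 in Df(3L)4470/+ (26.3% and 27%). Since the 3 contrasts share the 3 wild type arrays, a chance deviation of wild type enters all of them. Genes called in the pooled contrast and in every cross, with the same sign, are named shared genes below. There were 1492 shared rises (20.7%) and 1523 shared falls (21.1%). When all 27 arrays entered the fit, with the larger spread of the other genotypes, the shared genes were 513 rises and 251 falls.

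The median ratio was 0.78 for shared rises, -0.71 for shared falls and -0.01 for all genes tested, whose quartiles were -0.39 and 0.38. In 321 shared rises (4.45% of the genes tested) and 252 shared falls (3.49%) every cross differed from wild type by at least 1 unit, and in 52 rises and 31 falls by at least 2. The 9 deficiency arrays lay entirely on one side of the 3 wild type arrays for 3196 genes (44.3%). Of the 3015 shared genes, 2773 were separated in this way. Without centring of the arrays, 29.3% of the calls were rises, against 48.8% with it, because the deposited values put the median ratio at -0.25 for Df(3L)4470/+, -0.23 for Df(2L)J-H/+ and -0.22 for Df(2L)ED4651/+.

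**Figure D1:**
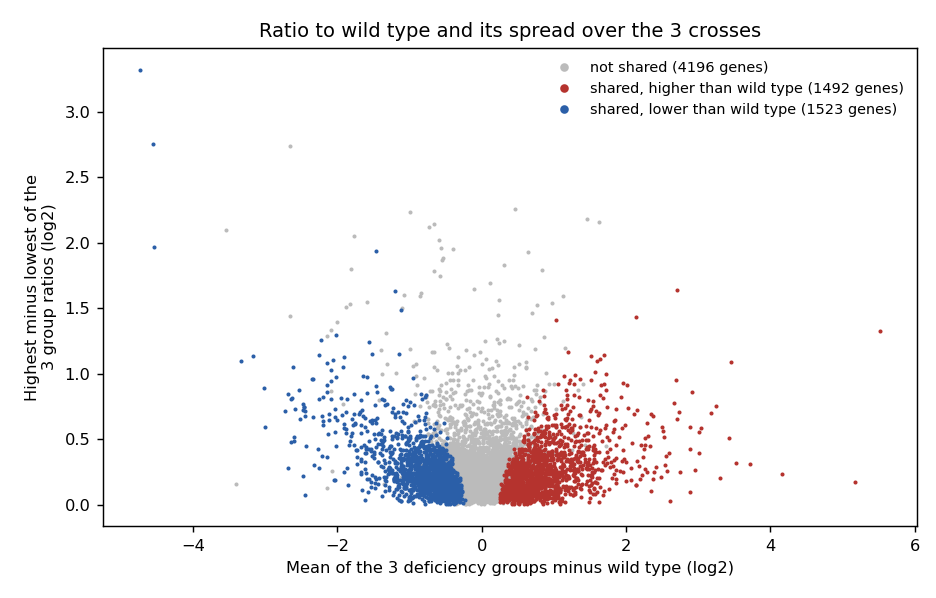
Each point is 1 of the 7211 genes tested, with the mean ratio of the 3 deficiency groups to wild type on the x axis and the difference between the highest and the lowest of the 3 group ratios on the y axis (both log2). The 1492 shared rises and 1523 shared falls lie mostly under 1 on the y axis, and the median spread was 0.22 for shared genes and for the others.

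The largest falls were in genes of the eggshell. Vm26Aa, which encodes a vitelline membrane protein of follicle cells, measured 13.03, 13.40 and 13.76 in wild type. On the 9 deficiency arrays it ranged from 6.13 to 12.62 with a median of 7.46, and the ratio was -4.73 (SE 0.91, adjusted p = 0.00081). No deficiency array reached the lowest wild type array, a separation for which the gene was chosen, but Df(3L)4470/+ replicate 1, the highest of them, came close to it.

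Vm34Ca, a related vitelline membrane gene, was at 13.52, 13.74 and 14.16 in wild type and between 7.42 and 13.20 (median 8.23) in the crosses, a ratio of -4.55 (SE 0.95, adjusted p = 0.0014). The gene dec (defective chorion 1), whose products form part of the eggshell, was at 10.18, 11.20 and 11.87 in wild type and between 5.48 and 10.01 (median 6.0) in the crosses, with a ratio of -4.54 (SE 0.64, adjusted p = 9.72e-05). In each of these genes the 9 deficiency arrays, taken over 3 genotypes, covered a wider range than the 3 wild type arrays. Within genotypes, every deficiency group had a larger SD than wild type for Vm26Aa and Vm34Ca. For dec only Df(3L)4470/+ did, with an SD of 2.03 against 0.85 in wild type. The dec arrays of Df(2L)J-H/+ lay closer together than those of wild type (SD 0.31). The same was true of Df(2L)ED4651/+ (SD 0.52).

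Of 8 vitelline membrane and eggshell genes tested, 7 fell and none rose, 6 of them as shared falls, and the median ratio was -2.77. The remaining gene, Fcp3C, had a ratio of -1.35 and missed the threshold. The mean of the list was 9.53 to 10.95 on the wild type arrays and 6.26 to 9.45 on the deficiency arrays. Arrays of 1 genotype differed widely in the other groups of the series. There the list mean was 6.77 to 11.02 in pof-mutant and 6.73 to 11.74 in pof-mutant, triplo 4th. It was 5.97 to 8.77 for Df(2L)J-H/+ with haplo 4th and 6.41 to 8.61 for haplo 4th alone. In Dp(2;2)Cam3/+, triplo 4th it was 5.97 to 10.99. Without Df(3L)4470/+ replicate 1, again 7 of the 8 fell and the median ratio was -3.11. The chorion genes themselves, which follicle cells transcribe last, gave 1 fall among 5 tested, that of Cp15 (ratio -3.40). The list mean differed from 5.39 to 9.97 among the wild type arrays, and the call of Cp15 was lost when any 1 of 7 deficiency arrays was left out, Df(3L)4470/+ replicate 2 and Df(2L)J-H/+ replicate 3 being the exceptions. Without wild type replicate 2, 4 chorion genes fell and the median ratio moved from -2.08 to -3.24, and without wild type replicate 3 only Cp15 was tested.

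RNAs of the female germline were lower as well. The translational repressor gene nanos, whose RNA marks the posterior of the egg, was at 9.95, 10.54 and 10.90 in wild type and between 6.09 and 9.12 (median 6.85) in the crosses. Its ratio was -3.33 (SE 0.44, adjusted p = 6.27e-05), a 10.1-fold lower level. The gene bcd (bicoid), which encodes the anterior determinant, had a ratio of -3.16 down to a mean of 5.75, under the limit of 6, and exu (exuperantia), needed to bring bicoid RNA to its place, had a ratio of -2.58. In all of these the deficiency arrays stayed below the wild type arrays, a separation for which they were chosen.

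The ovarian tumour gene otu, required for germ cell division and differentiation, was at 10.19, 10.21 and 10.78 in wild type and between 6.15 and 9.16 (median 7.15) in the crosses (ratio -3.02, SE 0.43, adjusted p = 0.000117). Marf1, an RNA-binding regulator of the oocyte, fell by 2.68, and osk (oskar), which assembles the germ plasm, fell by 1.20. Of 48 germline genes tested, 42 (87.5%) fell, against 33.2% of all genes tested. Of these, 39 fell in every cross, and the median ratio of the list was -1.31. Only grk, tud and stau rose, and without wild type replicate 1 or replicate 3 only 1 gene of the list did. The RNA-binding protein gene stau (staufen), which is also used outside the germline, was the shared rise among them, with a ratio of 0.86.

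Genes of the cell cycle were called in the same direction, 16 lower and none higher of 17 tested, with a median ratio of -1.15. The origin recognition gene Orc1 had a ratio of -2.01, cyclin gene CycE -1.87 (to a mean of 5.97), and Incenp of the chromosomal passenger complex -1.75. The securin gene pim was at 7.33, 8.52 and 8.97 in wild type and between 4.97 and 6.49 (median 5.09) in the crosses. Its ratio was -3.0 (SE 0.33, adjusted p = 1.77e-05), with a mean of 5.27 in the crosses, also under 6. CycB3, a mitotic cyclin gene, fell by 2.63 (SE 0.25, adjusted p = 8.88e-06).

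The yolk protein genes, expressed in fat body and follicle cells, moved less. Yp1, Yp2 and Yp3 fell by 0.49, 0.58 and 1.08 in the pooled contrast, none of them as a shared fall, and Yp1 lay at 13.50 to 13.67 in wild type and 11.99 to 13.55 in the crosses. The list of yolk genes gave 4 falls, and 2 when wild type replicate 1, 2 or 3 was left out, because Yp1 and Yp2 then missed the threshold. Yp1 also missed it without replicate 2 or 3 of Df(3L)4470/+ or of Df(2L)ED4651/+. The gene yl (yolkless), the yolk receptor of the oocyte, was a shared fall with a ratio of -2.03 (SE 0.18). All 8 female markers, which include several of these genes, fell in the pooled contrast. Their part in the other differences was not tested.

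**Figure D2:**
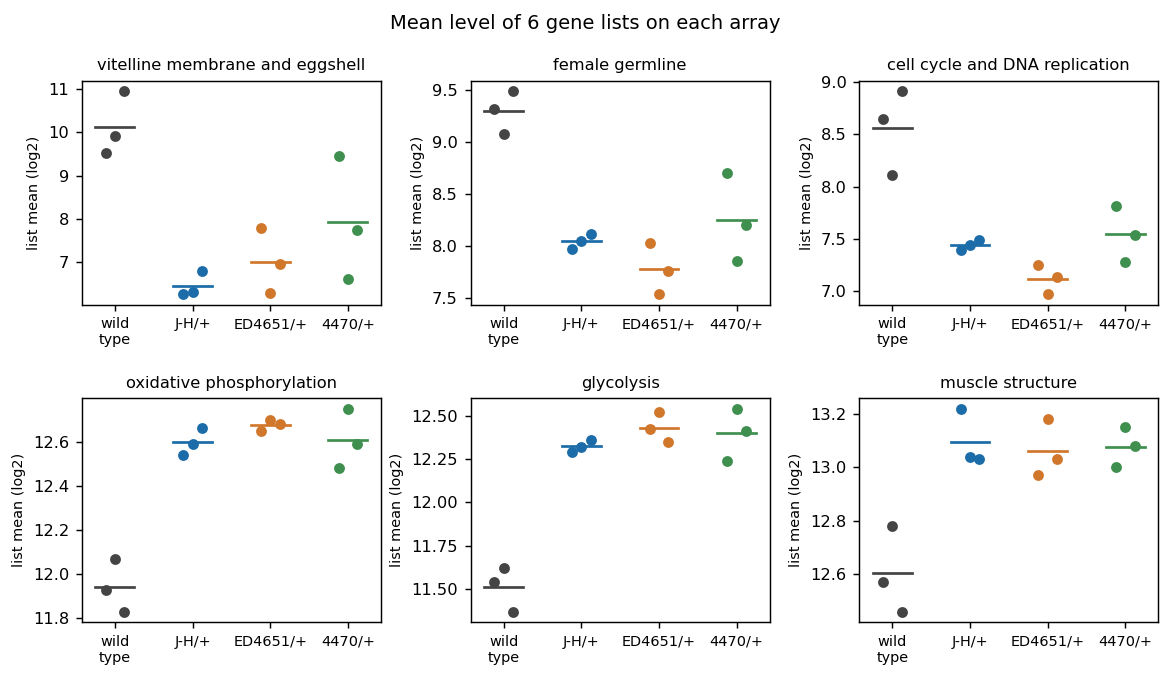
Mean log2 level of 6 gene lists on each array (points) with the group mean (line), for wild type and the 3 deficiency groups. The germline mean was 9.08 to 9.49 in wild type and 7.53 to 8.70 in the crosses, and the oxidative phosphorylation mean was 11.83 to 12.07 and 12.48 to 12.75, with Df(3L)4470/+ replicate 1 the highest deficiency array for the upper 3 lists.

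Genes of energy metabolism were higher in all 3 crosses. Of 57 tested genes of oxidative phosphorylation, which encode the respiratory complexes and ATP synthase of mitochondria, 55 rose and none fell, and 52 were shared rises. Their median ratio was 0.70, with 0.74 in Df(2L)ED4651/+, 0.66 in Df(3L)4470/+ and 0.65 in Df(2L)J-H/+. The exceptions were ND-B8 (-0.21) and COX7A (-0.02). Deficiency and wild type arrays did not overlap for 55 of the 57 genes, against 44.3% of all genes tested.

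SdhB, the iron-sulphur subunit of succinate dehydrogenase, was at 10.78, 10.95 and 11.18 in wild type and between 12.15 and 12.46 (median 12.36) in the crosses. Its ratio of 1.38 (SE 0.09, adjusted p = 8.71e-07) was the largest of the list and amounted to a 2.61-fold higher level. The Rieske protein gene RFeSP of complex III had a ratio of 1.14, and ATPsynbeta of ATP synthase 1.00. RFeSP lay between 12.82 and 13.33 on the 9 deficiency arrays and between 11.87 and 12.22 in wild type.

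In glycolysis 10 of 11 tested genes rose in every cross, with a median ratio of 0.83, and the remaining gene, the hexokinase gene Hex-A, had a ratio of 0.24. Pfk (phosphofructokinase), which catalyses the committed step, was at 10.60, 10.89 and 11.09 in wild type and between 12.14 and 12.59 in the crosses (ratio 1.55, SE 0.11, adjusted p = 1.67e-06). In the tricarboxylic acid cycle and gluconeogenesis 12 of 16 rose and 1 fell, Pepck2 (-0.46), while its paralog Pepck1 was a shared rise (0.84). Of the mitochondrial ribosomal proteins, 36 of 70 (51.4%) rose and 4 (5.71%) fell (median 0.21). The cytosolic ribosomal proteins gave 7 rises and 7 falls among 33 (21.2% each), with a median of 0.05, close to that of all genes tested. Of all genes tested, 31.7% rose and 33.2% fell. Without wild type replicate 1 the falls of these 2 ribosomal lists were 2 and 4. Without Df(2L)J-H/+ replicate 3 the tricarboxylic acid cycle list gave 2 falls.

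Muscle genes rose together with them. Of 22 tested, 18 (81.8%) were shared rises, against 20.7% of all genes tested, and the median ratio was 0.50. TpnC4, a troponin C of flight muscle, was at 11.99, 12.31 and 12.44 in wild type and between 13.57 and 13.96 in the crosses (ratio 1.49, SE 0.10, adjusted p = 1.08e-06), and the flight muscle actin gene Act88F had a ratio of 0.86 (SE 0.09, adjusted p = 1.22e-05), which was not called with all 27 arrays in the fit (adjusted p = 0.14). The giant proteins were not called, with ratios of -0.45 for sls and -0.24 for bt, although 2 genes of the list fell without Df(2L)J-H/+ replicate 1. Outside the list, the Z-disc gene Zasp67 had a ratio of 2.54 (SE 0.17) and slow (slowdown), which encodes an extracellular protein of the contact between muscle and tendon, one of 3.04 (SE 0.26).

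In the proteasome list 21 of 26 genes (80.8%) rose and none fell, against 31.7% and 33.2% of all genes tested. The ratios were small (median 0.29). They were larger in Df(2L)J-H/+ (0.44) than the 0.23 and 0.25 of the other crosses, a difference called for 3 of the 26 genes. On uncentred values 49 of the 57 oxidative phosphorylation genes, 10 of the 11 glycolysis genes, 13 of the 22 muscle genes and 5 of the 26 proteasome genes rose, and the median of the mitochondrial ribosomal proteins turned to -0.01. With all 27 arrays in the fit, 49, 10, 2 and 12 genes of the same 4 lists rose.

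**Figure D3:**
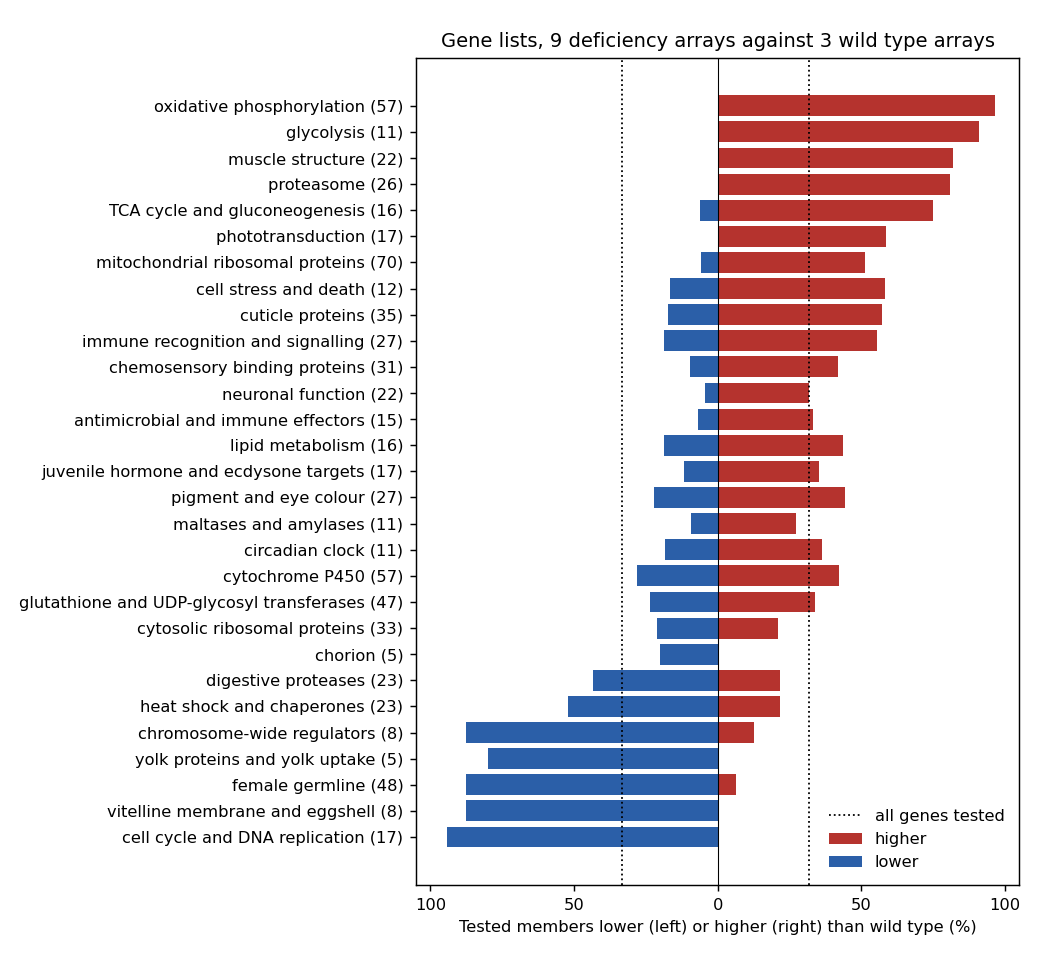
Share of the tested members of each gene list with at least 5 tested members, the marker lists left out, that were higher (right, red) or lower (left, blue) on the 9 deficiency arrays than on the 3 wild type arrays, with the number tested in parentheses. Dotted lines mark the share of all 7211 genes tested, 31.7% higher and 33.2% lower. Oxidative phosphorylation (55 of 57 higher) and cell cycle genes (16 of 17 lower) lie at the ends among the lists drawn.

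Mal-B1, a maltase gene, was at 5.31, 5.34 and 5.68 in wild type and between 10.03 and 11.79 (median 11.10) in the crosses. The ratio was 5.52 (SE 0.20, adjusted p = 1.59e-08). The wild type mean of 5.44 lay under 6, and the gene passed the limit on low values only through the deficiency groups, so the size of this ratio rests on a wild type level not shown to be above background. No other of the 11 maltase and amylase genes tested was a shared rise. The pooled contrast called Mal-A7 (0.56) and Mal-A5 (0.36) higher and tobi (-0.79), another alpha-glucosidase gene, lower, and the related Mal-B2 had a ratio of 0.21. Of this list 27.3% rose and 9.09% fell, against 31.7% and 33.2% of all genes tested. The median of the list was 0.16, and 0.01 without wild type replicate 2.

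Large ratios were also found in genes known only by number. CG9701 was at 5.80, 5.81 and 5.91 in wild type and between 10.48 and 11.60 (median 11.03) in the crosses, a ratio of 5.17 (SE 0.23, adjusted p = 7.74e-08), and the ratios of the single crosses lay between 5.05 and 5.23. CG15617 rose from 8.11, 8.96 and 9.08 to between 12.15 and 13.32 (ratio 4.16, SE 0.25, adjusted p = 5.22e-07). CG31606 had a ratio of 3.52 (SE 0.27). CG9701 and CG31606, with wild type means of 5.84 and 5.81, likewise passed the limit only through the deficiency groups. Of the 52 genes that rose by at least 2 units in every cross, 13 had a wild type mean under 6, a level at which background can be a large part of an array signal.

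Genes of pigment synthesis were among the large rises. The gene e (ebony), whose enzyme conjugates beta-alanine to dopamine for tan cuticle, was at 8.46, 8.80 and 9.28 in wild type and between 11.06 and 12.29 (median 11.81) in the crosses (ratio 2.88, SE 0.22, adjusted p = 2.44e-06). Its counterpart t (tan), which releases dopamine again, had a ratio of 1.02. Ddc, the dopa decarboxylase gene, rose by 1.58 and yellow-f2, a dopachrome conversion enzyme, by 2.22, both in every cross.

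The gene y (yellow) itself, mutant in the wild type stock, differed little in RNA, with 6.31, 6.41 and 6.51 in wild type, 5.71 to 6.75 in the crosses and a ratio of -0.03 (adjusted p = 0.88). No probe set measured w (white) alone. In the whole list of pigment and eye colour genes 12 of 27 (44.4%) rose and 6 (22.2%) fell, or 3 without wild type replicate 3. Of all genes tested, 31.7% rose and 33.2% fell. The median of the list was 0.10, and the pteridine genes pr (0.94) and se (1.10) were shared rises.

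Other large shared rises fell in no common list. alpha-Man-Ia, a mannosidase of the Golgi, had a ratio of 3.01 (SE 0.19), bumpel, of a family of sodium-coupled transporters, 2.61 (SE 0.16), and Gat, the transporter that clears GABA, 2.27 (SE 0.22). Try29F, a trypsin-like gene, was at 5.34, 5.42 and 5.92 in wild type and spread from 6.38 to 9.34 in the crosses (ratio 2.35, SE 0.53, adjusted p = 0.00242). Its 9 deficiency arrays were all above wild type, for which it was chosen, but far apart from each other. The wild type mean of 5.56 was again under 6.

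**Figure D4:**
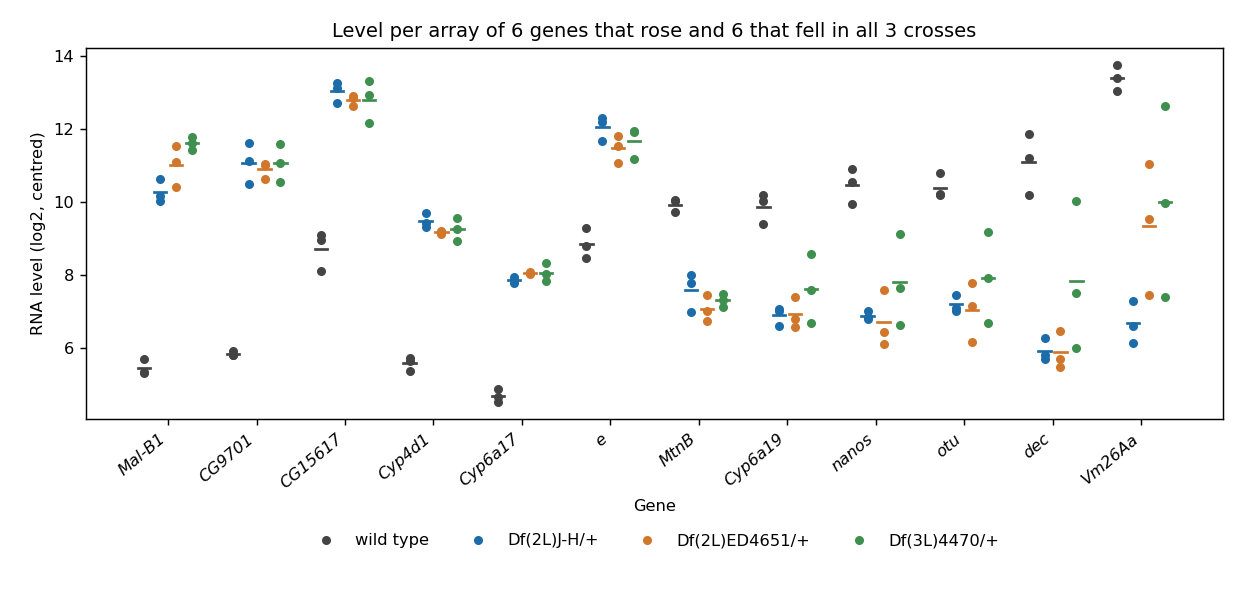
Log2 level on each array (points) and group mean (line) of 6 genes that rose and 6 that fell in all 3 crosses. Mal-B1 lay at 5.31 to 5.68 in wild type and 10.03 to 11.79 in the crosses, and Vm26Aa, dec, nanos and otu spread widely among the crosses. The genes were chosen for having no overlap between deficiency and wild type arrays, and levels under 6 were not shown to be above background.

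Cytochrome P450 genes, which encode oxidases of hormones, fatty acids and foreign compounds, moved in both directions. Of 57 tested, 24 (42.1%) rose and 16 (28.1%) fell, against 31.7% and 33.2% of all genes tested. The median was 0.18, or -0.04 without centring, and 16 rises and 11 falls were shared. Cyp4d1 was at 5.36, 5.63 and 5.73 in wild type and between 8.92 and 9.70 in the crosses (ratio 3.72, SE 0.13, adjusted p = 1.21e-08). Its wild type mean of 5.58 lay under 6, so the gene passed the limit only through the deficiency groups and the size of the ratio is a description. The related Cyp4d8 had a ratio of 2.55 (SE 0.15). Cyp4p2 and Cyp6a2 were shared falls with ratios of -2.48 and -1.52.

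Neighbouring genes of the Cyp6a cluster on 2R differed in opposite directions. Cyp6a17 was at 4.52, 4.64 and 4.87 in wild type and between 7.77 and 8.31 in the crosses, with a ratio of 3.31 (SE 0.10, adjusted p = 5.52e-09). It too passed the limit only through the deficiency groups, its wild type mean being 4.67, a level not shown to be above background. Cyp6a23, next to it, lay at 9.04 to 9.23 in wild type and 9.04 to 9.92 in the crosses (ratio 0.16, adjusted p = 0.297). The gene after that, Cyp6a19, was at 9.38, 10.03 and 10.18 in wild type and between 6.57 and 8.57 in the crosses, a ratio of -2.72 (SE 0.32, adjusted p = 3.12e-05). Its replicates ranked like those of the germline gene otu. In Df(3L)4470/+ they were 8.57, 6.69 and 7.58, against 9.16, 6.67 and 7.90 for otu. In pof-mutant they were 10.89, 12.57 and 10.05, against 11.06, 11.57 and 9.49. Whether the fall of Cyp6a19 goes with that of the ovarian RNAs was not tested.

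Further along the cluster, Cyp6a20, known for its effect on male aggression, was at 6.60, 6.94 and 7.10 in wild type and between 9.29 and 9.79 in the crosses (ratio 2.74, SE 0.12, adjusted p = 6.08e-08). The members between and beside these moved less, Cyp6a9 with a ratio of -0.35, Cyp6a21 with -0.69 and Cyp6a22 with -0.28. Only Cyp6a21 of these was a shared fall. These genes are close in sequence, and a probe set may read a neighbour or miss an allele that differs from the strain it was designed on, which was not tested.

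**Figure D5:**
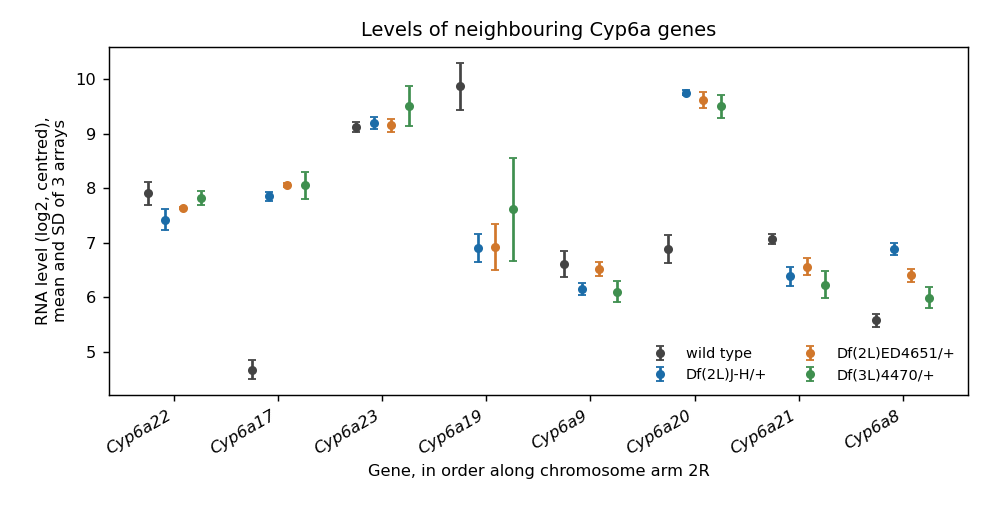
Mean log2 level and SD over 3 arrays of 8 neighbouring Cyp6a genes in their order on chromosome arm 2R, for wild type and the 3 deficiency groups. Cyp6a17 and Cyp6a20 were higher in every cross (ratios 3.31, from a wild type mean under 6, and 2.74) and Cyp6a19 was lower (-2.72), while Cyp6a23 was not called and Cyp6a8 was too low to be tested.

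The 4 metallothionein genes, which bind copper and other metals, all fell, 3 of them as shared falls. MtnB was at 9.72, 10.01 and 10.04 in wild type and between 6.74 and 8.0 (median 7.32) in the crosses (ratio -2.60, SE 0.20, adjusted p = 2.12e-06), and MtnC had a ratio of -1.92. MtnA, at 13.71 to 13.79 in wild type, had ratios of -1.01 in Df(2L)J-H/+, -0.54 in Df(3L)4470/+ and -0.43 in Df(2L)ED4651/+. Glutathione and UDP-glycosyl transferases, which conjugate foreign compounds, gave 16 rises (34%) and 11 falls (23.4%) of 47 with a median of 0.01. Of all genes tested, 31.7% rose and 33.2% fell. GstD5 had the largest shared change of the list (-1.88, SE 0.22, to a mean of 5.68).

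Of 23 genes for digestive serine proteases of the gut, 10 (43.5%) fell, against 33.2% of all genes tested, and 5 rose, with a median of -0.30. Without wild type replicate 1 or replicate 3 there were 3 rises, and the median was -0.54 without wild type replicate 1 and -0.48 without Df(3L)4470/+ replicate 1. The list mean was 9.63 to 9.91 in wild type, and Df(2L)ED4651/+ replicates 1 and 3 lay within that range, at 9.67 and 9.85. Jon74E and Jon44E of the Jonah family were shared falls with ratios of -2.15 (SE 0.29) and -2.11 (SE 0.30), and Ser7 was the only shared rise (1.34). The other shared falls were yip7 (-1.02) and alphaTry (-0.49), and Jon65Ai and epsilonTry, with pooled ratios of -2.14 and -2.09, were not called in every cross.

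Among genes of immune recognition and signalling 15 of 27 (55.6%) rose and 5 (18.5%) fell, against 31.7% and 33.2% of all genes tested. The median was 0.47. NimC1, a phagocytosis receptor of blood cells, was at 5.22, 5.59 and 5.67 in wild type and between 6.95 and 8.71 in the crosses (ratio 2.38, SE 0.33, adjusted p = 9.06e-05). With a wild type mean of 5.49 it passed the limit only through the deficiency groups, and the size of its ratio rests on a level not shown to be above background. SPE, the protease that activates the Toll ligand, had a ratio of 1.29, and GNBP3, a sensor of fungal glucan, 1.26. Components of the Toll pathway that also pattern the embryo went the other way, with ratios of -0.90 for the receptor gene Tl, -0.86 for its ligand gene spz and -0.54 for the transcription factor gene dl. Of the antimicrobial and immune effectors 5 of 15 (33.3%) rose, close to the 31.7% of all genes tested, and 1 fell (median 0.16). BomS4 (1.56) and IM33 (0.87) were shared rises. The median was 0.28 without wild type replicate 1, and IM33 was not called with all 27 arrays in the fit (adjusted p = 0.0833).

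Of 35 cuticle protein genes tested, 20 (57.1%) rose and 6 (17.1%) fell, against 31.7% and 33.2% of all genes tested (median 0.51). Without wild type replicate 2, 3 fell. Cpr64Aa, with a chitin-binding domain typical of the family, was at 8.51, 8.58 and 8.93 in wild type and at least 9.76 (median 10.48) in the crosses (ratio 1.71, SE 0.21, adjusted p = 4.2e-05). Cpr47Ea was the only shared fall (-1.25). Of 23 heat shock and chaperone genes, 12 (52.2%) fell and 5 (21.7%) rose, against 33.2% and 31.7% of all genes tested (median -0.27). Without wild type replicate 3 only 7 fell. The small heat shock gene Hsp26, also a germline list member because nurse cells express it, fell by 2.35 (SE 0.29, adjusted p = 3.84e-05), and Hsp27 fell by 1.08, a call lost with all 27 arrays in the fit (adjusted p = 0.133). DnaJ-1, a co-chaperone gene, rose by 0.76.

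Genes that mark or regulate whole chromosomes were mostly lower, 7 of 8 tested, with a median of -0.53. Pof, whose protein coats chromosome 4, was at 7.43, 7.69 and 7.91 in wild type and between 6.22 and 6.55 in the crosses. The ratio was -1.28 (SE 0.11, adjusted p = 4.95e-06), and the ratios of the single crosses lay between -1.34 and -1.23. The same probe set read 8.93, 9.13 and 11.07 in pof-mutant, above wild type (ratio 2.03). Its ratios were 0.14 in pof-mutant, triplo 4th, -0.55 for Df(2L)J-H/+ with haplo 4th, -0.68 for haplo 4th alone and -0.32 in Dp(2;2)Cam3/+, triplo 4th. Since the signal was high in flies mutant for Pof, it need not measure intact Pof RNA. What it reads in each genotype was not tested. The dosage compensation genes mof and msl-3 had ratios of -0.80 (to a mean of 5.87) and -0.71, msl-3 without a call when all 27 arrays were fitted (adjusted p = 0.0965), and the sex determination gene tra was a shared rise (0.27).

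Shared genes lay on every chromosome arm. Shared rises made up 23.1% of the tested genes of 2L, 21.9% of 2R, 20.6% of 3L, 21.9% of 3R and 20% of the 50 genes of chromosome 4, and 15.1% of the X. Shared falls made up 19.8%, 20.2%, 17.7%, 19.9% and 12% of those arms and 29.7% of the 1211 genes of the X. The median ratio was -0.14 on the X and between -0.01 and 0.04 on the other arms. In 113 windows of 1 Mb that held at least 20 tested genes, the shared genes made up 18.6% to 67.9% (median 42%).

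The longest run of adjacent tested genes that were all shared rises held 7 genes on 2L, from CG3513 to CG31777, with ratios from 0.82 (CG2816) to 1.49 (CG10031) and the immune-induced gene IM33 among them. A run of 6 on 3R held the cuticle genes Cpr97Ea (0.95) and Cpr97Eb (1.45) and ended with Jhbp11 (0.88). In the fit of all 27 arrays IM33 (adjusted p = 0.0833) and Cpr97Eb (0.129) were not called. The longest run of shared falls held 5 genes of the X from Cdk7 (-0.58) to Mcm3 (-0.81), among them dhd (deadhead), a thioredoxin of the egg (-2.45). The runs were looked for after the values were known and carry no test.

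The 3 crosses differed among themselves in few genes. An F test over the 3 deficiency groups called 340 of the 7211 genes (4.72%), of which 97 were among the 3015 shared genes (3.22%) and 243 among the 4196 others (5.79%). CG5953, with 13.29, 13.31 and 13.35 in wild type, had ratios of -1.62 in Df(2L)ED4651/+, -1.35 in Df(3L)4470/+ and -0.47 in Df(2L)J-H/+ (adjusted p of the F test 3.2e-05). CG12780 was lowest in Df(2L)J-H/+, with ratios of -0.62, -1.21 and -2.55 in the same order (8.86e-05) and a deficiency mean of 5.55. For Mal-B1 the ratios were 5.58, 6.16 and 4.83 (0.0196). The count of 340 ranged from 194 to 488 when each array in turn was left out, and was 194 without Df(2L)J-H/+ replicate 2.

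The other 5 groups of the series came from other crosses or stocks and share the wild type arrays, so their values are given beside those above without a test. By the methods of the paper, pof-mutant females came from a y1 w67c23 stock carrying a Pof mutation, and haplo 4th females had a wild type parent. Cyp6a17, at most 4.87 in wild type, was between 7.48 and 9.0 on the 15 other arrays, with ratios of 3.81 in pof-mutant, 3.84 in pof-mutant, triplo 4th, 3.0 for the females with both Df(2L)J-H/+ and haplo 4th, 3.59 for haplo 4th alone and 3.21 for Dp(2;2)Cam3/+, triplo 4th. CG13311, at 10.55 to 10.80 in wild type and 7.53 to 8.57 in the crosses, was between 6.02 and 9.68 there, with a ratio of -2.32 in pof-mutant. In these genes all 24 arrays of the other genotypes lay on one side of the 3 wild type arrays.

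Mal-B1 had ratios of 0.03 in pof-mutant and -0.11 in pof-mutant, triplo 4th. Its ratios were 2.21 for Df(2L)J-H/+ with haplo 4th, 5.02 for haplo 4th alone and 4.64 for Dp(2;2)Cam3/+, triplo 4th. Cyp4d1 had ratios of -0.51, 1.11, 3.93, 3.59 and 2.79 in the same order. By contrast CG9458, a shared fall of 2.68 in the Oregon R crosses, had ratios between -0.65 and 0.86 in the other 5 groups, and Jon44E between 0.02 and 1.12. The gene e had ratios from -0.41 (pof-mutant) up to 1.84 (Df(2L)J-H/+ with haplo 4th).

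The germline list mean was 9.11 to 10.67 in pof-mutant and 8.43 to 10.29 in pof-mutant, triplo 4th. It was 7.44 to 9.09 for Df(2L)J-H/+ with haplo 4th and 8.43 to 8.81 for haplo 4th alone. In Dp(2;2)Cam3/+, triplo 4th it was 7.47 to 9.46. The oxidative phosphorylation mean was 10.79 to 11.85, 11.23 to 12.23, 12.32 to 12.55, 12.32 to 12.38 and 12.01 to 12.37 in the same order. In the germline list the replicates of each of these groups except haplo 4th alone spread more widely than the 3 wild type or the 9 deficiency arrays.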

How the data were processed

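The deposited log2 values had been made by the authors with RMA (background correction, quantile normalization and summary per probe set). Whether all arrays were normalized together is not given in the sources used here. Of 18952 probe sets, 13647 carried 1 gene symbol, 402 several and 4903 none, and 13550 of the first matched NCBI RefSeq genes of Release 6. Of a gene's several probe sets the brightest over 27 arrays was kept, which left 11899 genes. Genes were tested where the midpoint of the wild type mean and the pooled deficiency mean exceeded 6, and each array was shifted so that its mean over them equalled that of wild type. limma 3.58.1 in R 4.3.3 fitted 1 mean per genotype, with Benjamini-Hochberg adjustment over all 7337 genes and a threshold of 0.05. The number of arrays limits the precision. The steps were run on simulated arrays in which few genes changed and the noise was independent between genes. That setting differs from these data, so it does not test the call rates found here. Named genes were Pof, y, the largest shared rises and falls without overlap between arrays (12 each with a name, 3 each with a CG number), up to 3 shared genes of each of 34 lists, and 5 shared genes with the largest F. Other list members, and genes of runs, were chosen after their values were seen. The members and lists were chosen with earlier results of these data known. Alternatives changed the centring, the filter, the arrays in the fit, the block, the probe sets, the segments and each array in turn.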

Additional observations from a re-analysis of the deposited data

Results flagged for a closer look

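Among the genes named above, 8 had ratios to wild type that differed between the 3 deficiency groups by the F test across them, while all 3 groups lay on the same side of wild type. The adjusted p was 3.2e-05 for CG5953, 8.86e-05 for CG12780, 0.000346 for Arpc1, 0.000377 for Cyp6a18, 0.000378 for Aldh7A1, 0.0177 for fbp, 0.0196 for Mal-B1 and 0.0286 for MtnA, and the smallest 5 belong to genes that were chosen for the size of their F. Arpc1, a subunit of the actin-nucleating Arp2/3 complex, had ratios of 0.75 in Df(2L)ED4651/+, 0.55 in Df(3L)4470/+ and 1.31 in Df(2L)J-H/+. Cyp6a18, a cytochrome P450 gene, had ratios of -0.50, -0.87 and -1.99 in the same order, and the aldehyde dehydrogenase gene Aldh7A1 had ratios of 1.04, 0.62 and 0.22 and lost its pooled call with all 27 arrays in the fit (adjusted p = 0.159). For fbp, the gluconeogenic enzyme fructose bisphosphatase, the ratios were 1.53, 1.31 and 0.72. Df(2L)J-H/+ held the highest or the lowest ratio in each of the 8 genes. With 3 groups any of them is often at an end, and this was not tested.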

How the results depend on the processing

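With all 27 arrays in the fit, the pooled contrast gave 1315 rises and 1100 falls, the shared genes were 513 and 251, the crosses gave 807 and 531 (Df(2L)J-H/+), 952 and 676 (Df(2L)ED4651/+) and 726 and 388 (Df(3L)4470/+), and 51 genes differed between deficiencies. The deposited values without centring gave 1417 pooled rises and 3415 falls, 933 shared rises and 2410 falls, rises of 1311, 1356 and 1153 in the 3 crosses and 3039 falls in Df(3L)4470/+, the median ratio being -0.229, -0.216 and -0.249 before centring. A limit of 8 on the midpoint, which leaves 4034 genes, gave 1268 and 1384 pooled, 873 and 891 shared, and in the crosses 1142 and 1233, 1188 and 1236, and 1098 and 1174. Without a filter (11696 genes) 3676 rose in the pooled contrast. With genotype as a random block the pooled counts were 1808 and 1896. Leaving out each array in turn gave 1873 to 2328 pooled rises and 1968 to 2448 falls, 1143 to 1579 shared rises and 1141 to 1623 falls, and in the crosses 1630 to 2029 and 1657 to 2146 (Df(2L)J-H/+), 1730 to 2172 and 1806 to 2186 (Df(2L)ED4651/+), and 1492 to 1926 and 1508 to 2038 (Df(3L)4470/+). The between-deficiency count ranged from 194 to 488 and was 194 and 220 without Df(2L)J-H/+ replicates 2 and 3, 206 and 210 without Df(2L)ED4651/+ replicates 1 and 3, and 219 without Df(3L)4470/+ replicate 3. With the replicate number as a block, 2251 rose and 2355 fell, and 1504 and 1534 were shared. The numbers do not pair the arrays, since deviations of same-numbered arrays correlated at -0.278 to 0.524. Of the named genes, 92 kept their call under all 26 alternatives in which they were tested, no direction turned, and 12 lost the call with all 27 arrays, namely Act88F (adjusted p = 0.14), fln (0.206), Hsp27 (0.133), RpS5b (0.0754), IM33 (0.0833), Gbeta76C (0.071), Galphaq (0.157), cry (0.0614), Cpr50Cb (0.0576), Cpr97Eb (0.129), msl-3 (0.0965) and Aldh7A1 (0.159). RpL41 lost it without centring and with quantile normalization (0.0674 and 0.968). The causes were not tested.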

Other observations

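Of 17 phototransduction genes tested, 10 (58.8%) rose, against 31.7% of all genes tested, and none fell, against 33.2% (median 0.44), among them the G protein genes Galphaq (0.83) and Gbeta76C (0.87) and the carotenoid receptor gene ninaD (1.62, SE 0.31), while the channel genes trp (0.14) and trpl (0.21) were not called. With all 27 arrays in the fit 2 of the 17 rose, and Galphaq (adjusted p = 0.157) and Gbeta76C (0.071) were not called. Among 31 chemosensory binding protein genes, 13 (41.9%) rose and 3 (9.68%) fell, against 31.7% and 33.2% of all genes tested. The median was 0.04. Without wild type replicate 1, 8 rose, and without wild type replicate 2, 1 fell. The gene lush, an odorant binding protein used to sense a male pheromone, was at 6.29, 6.51 and 7.30 in wild type and 7.53 to 8.81 in the crosses (ratio 1.59, SE 0.20). Of 22 neuronal genes 7 (31.8%, close to the share of all genes) rose and 1, the calcium channel gene cac (-0.72), fell, with a median of 0.21. The rises were 4 without wild type replicate 1 or 3 and 12 without wild type replicate 2, with medians of 0.13, 0.09 and 0.46, and the falls were 2 without replicate 3 and 0 without replicate 2. The pan-neuronal genes elav (0.12) and brp (0.04) were not called.

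Of 11 clock genes, 4 (36.4%) rose and 2 (18.2%) fell, against 31.7% and 33.2% of all genes tested. Without Df(2L)J-H/+ replicate 1, 4 fell, and without wild type replicate 2, 1 fell. Clk, the activator of the loop, had a ratio of 1.05 and the photoreceptor gene cry 0.88, both in every cross, although cry was not called with all 27 arrays in the fit (adjusted p = 0.0614), whereas per (-0.34) and cyc (-0.31) fell in the pooled contrast only. The hour of collection is not given in the sources used here. Juvenile hormone and ecdysone genes gave 6 rises (35.3%) and 2 falls (11.8%) of 17, against 31.7% and 33.2% of all genes tested. Their median was 0.45, and 0.06 without wild type replicate 2. The hormone-degrading esterase genes Jhe (1.67) and Jhedup (1.30) and the early target Kr-h1 (1.17) were shared rises, and the receptor partner usp was a shared fall (-0.98). The initiator caspase gene Dronc was at 8.41, 8.74 and 8.83 in wild type and 9.76 to 11.13 in the crosses (ratio 1.74, SE 0.20), while the effector caspase gene Dcp-1 fell by 0.37.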
